A study of Mus musculus with 6 samples.

Results

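NADPH oxidases are membrane enzymes that pass electrons from NADPH to oxygen and so make superoxide or hydrogen peroxide. The 9 genes described here encode the shared membrane partner p22phox (Cyba), the catalytic subunits Nox1, Nox2 (Cybb) and Nox4, the cytosolic organisers and activators p47phox (Ncf1), p40phox (Ncf4), Noxo1 and Noxa1, and the small GTPase Rac1. They were taken by name, and the list was chosen by the counts and CPM of these genes per sample, with the difference in Cyba between young and old populations already known. All 9 were found among the 21485 gene identifiers present in every matrix.

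The cells were mouse muscle-derived stem/progenitor cells (MDSPCs), a slowly adhering fraction of dissociated skeletal muscle that was enriched by repeated transfer of unattached cells to fresh collagen-coated flasks. The series holds 3 young and 3 old mouse populations, called young 1 to 3 and old 1 to 3 after their replicate numbers. All 6 had been expanded in the same serum-rich proliferation medium, with no further treatment or genetic change named, and were profiled by droplet 3′ single-cell RNA sequencing. The labels give no age, sex or strain and do not say whether a population came from 1 mouse or several. Each population is 1 sample, so every spread below is a spread between these 6 cultures.

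In phagocytes, Nox2 is held in the membrane by p22phox and switched on when cytosolic subunits such as p47phox and p40phox and a Rac protein join it. Nox1 uses Noxo1 and Noxa1 in the same way, while Nox4 needs p22phox but no cytosolic subunit and makes mainly hydrogen peroxide. Nox4 and Nox2 are the catalytic forms usually discussed for muscle cells and muscle fibres, and p22phox is required for a stable, working Nox1, Nox2 or Nox4.

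The promoters of Cyba and Nox4 are shown because the results turn on where each of these partners was found. Each run is the 250 bases before the gene start in RefSeq GRCm38.p6, read 5′ to 3′ on the strand of the gene, with CG dinucleotides in capitals. The RefSeq start of Nox4 lies downstream of the GENCODE start at 87246096, so its window falls inside the longer GENCODE gene. The window of Cyba lies at chr8:122432941-122433190 on the minus strand and that of Nox4 at chr7:87246399-87246648 on the plus strand.
Cyba: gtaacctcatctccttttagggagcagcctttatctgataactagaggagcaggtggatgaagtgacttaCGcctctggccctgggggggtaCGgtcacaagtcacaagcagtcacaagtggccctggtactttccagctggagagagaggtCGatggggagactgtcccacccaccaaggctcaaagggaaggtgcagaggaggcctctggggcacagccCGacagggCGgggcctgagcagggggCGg
Nox4: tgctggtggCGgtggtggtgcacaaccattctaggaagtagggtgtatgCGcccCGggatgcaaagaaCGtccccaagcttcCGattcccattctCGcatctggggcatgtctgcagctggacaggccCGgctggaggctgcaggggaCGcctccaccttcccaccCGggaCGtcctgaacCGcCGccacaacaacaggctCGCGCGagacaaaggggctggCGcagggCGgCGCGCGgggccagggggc
The Cyba window held 6 CG dinucleotides, a number reached by 50.4% of the 32851 mouse promoter windows of that length. The Nox4 window held 20, a number reached by 17.9% of them. The GC-box letters GGGCGG, each of which contains a CG, occurred 2 times before Cyba and once before Nox4 on either strand, and were present in 32.7% of all windows. Neither TATAAA (in 12.4% of all windows) nor the ETS-type core GAGGAA (in 23.3%) was found in either window on either strand. Promoter entries were matched for 7 of the 9 genes, and not for Ncf4 and Rac1.

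The kept cells numbered 61673, between 8674 and 12541 per sample, with 133608357 to 193380549 UMIs per sample on shared identifiers. Young 1 and old 1 had been counted on a shorter gene list than the other 4 samples. Pairs of libraries shared between 23 and 35 cell barcodes. Myogenic markers (10 genes, among them Myod1, Chrna1 and Des) were present in every sample at a summed level of 364 to 3584 CPM, with old 1, young 1 and young 3 at 364, 431 and 451. The stem cell factors were uneven, with 1 count of Myf5 in young 1 and 5 counts of Pax7 in young 3. CPM is the usual scaling of a gene's count, here summed over the kept cells of a sample, to a common total of UMIs. Of 12 leukocyte and phagocyte markers, whose summed level was 3.12 to 10.1 CPM, Tyrobp was at 0 in all 6 samples and Ptprc gave 0 to 8 counts, while Cd68 gave 210 to 979 and Fcer1g 99 to 395 counts. Csf1r reached 607 counts in young 2 (3.14 CPM), and Laptm5 221 counts in old 2 (1.24 CPM). Summed levels were 1.67 to 9.66 CPM for 8 endothelial markers, 1.15 to 26.3 for 6 glial markers, 28.8 to 502 for 8 mural markers (mostly Des in the 2 highest) and 284 to 511 for 10 fibro-adipogenic markers (led by Gsn). Because reads were counted from 3′ ends, levels are compared below between samples and not between genes.

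Cyba (ENSMUSG00000006519, GRCm38 chromosome 8, 122424776 to 122432930, minus strand) was the only member whose young and old samples did not overlap. In young 1, 2 and 3 it gave 0, 1 and 1 counts, and in old 1, 2 and 3 it gave 378, 19447 and 13382. These counts were 0, 0.00517 and 0.00529 CPM in young 1, 2 and 3, against 2.50, 110 and 73.3 CPM in old 1, 2 and 3. The mean was 0.00349 ± 0.00302 CPM (SD, n = 3) in the young and 61.8 ± 54.4 CPM (SD, n = 3) in the old samples. Among the old populations, old 2 lay 43.9-fold and old 3 29.3-fold above old 1, and old 2 lay 1.49-fold above old 3. Old 1 was also the only old sample counted on the shorter gene list, and the part of the list in this gap was not tested. Against the 2 counts in 515847775 UMIs of the pooled young samples, the ratio was 644 for old 1 (95% exact interval of counting 177 to 5338), 28246 for old 2 (7818 to 233250) and 18898 for old 3 (5230 to 156060). The list was drawn up from this contrast, so no test is given for it. Over all genes tested, 5.93% of 14512 had young and old samples without overlap, and edgeR (quasi-likelihood test, Benjamini-Hochberg adjusted p) called 0.00689% of them (1 gene, with 512 at an unadjusted p under 0.05 and 219 called by DESeq2). That count was 0 without young 1 or old 1 and 3 without young 3, and nothing about Cyba is read from it.

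At the level of single cells, Cyba was found in many cells of old 2 and old 3 and in few of old 1, and its UMIs were unevenly spread over them. After each cell was thinned at random to 5000 UMIs, a Cyba UMI was present in 112 of 9906 cells of old 1 (1.13%, exact 95% interval 0.932 to 1.36), 2989 of 8510 of old 2 (35.1%, 34.1 to 36.1) and 2887 of 12168 of old 3 (23.7%, 23.0 to 24.5). An even spread of the same counts over all cells would give 1.27%, 41.2% and 28.4%, so the observed shares were 0.888, 0.853 and 0.836 of that. Without thinning, where cells also differ in depth, 227 of 10147, 5386 of 8725 and 5497 of 12541 cells had a Cyba UMI. These shares were 0.614, 0.720 and 0.711 of an even spread, with 3 or more UMIs in 36, 3049 and 1570 cells and up to 8, 24 and 55 UMIs in single cells. The young samples held 1, 1 and 0 such cells in young 2, 3 and 1, and 0 of 8674 cells in young 1 allows a share of cells with a Cyba UMI of up to 0.0346% (3 cells), which does not bound the cells that express the gene. Median depth was 13001 to 19951 UMIs per kept cell in the old and 13713 to 16453 in the young samples. No cell type lacking Cyba was defined inside the old cultures, and free RNA and doublets were not measured. With the highest-UMI barcodes left out, Cyba was at 2.59, 110 and 63.8 CPM in old 1, 2 and 3.

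**Figure D1:**
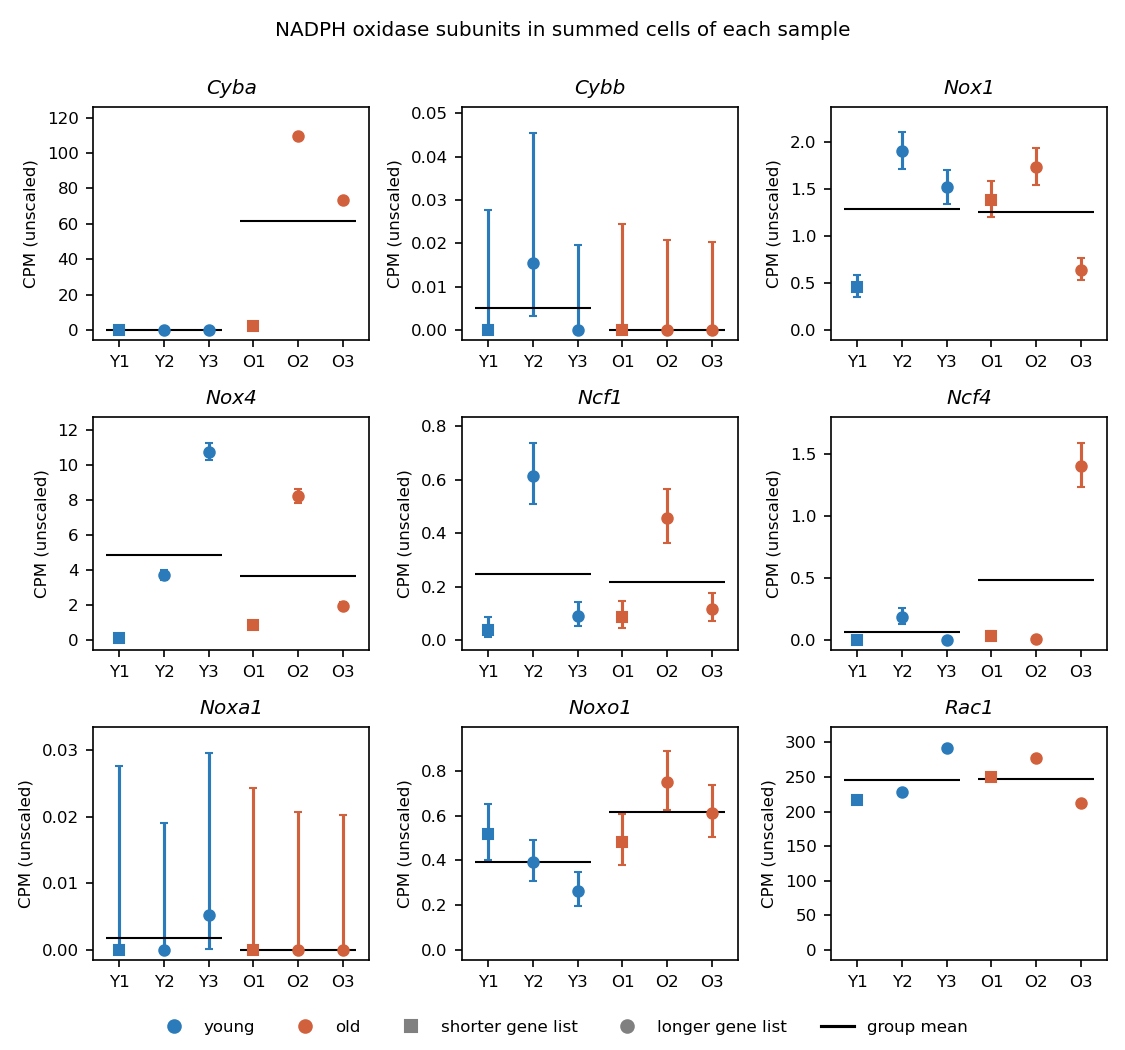
Unscaled CPM of the 9 subunits in each sample (Y1 to Y3 young, O1 to O3 old), each panel with its own linear axis; bars on points are exact 95% counting intervals and horizontal lines are group means over 3 samples. Cyba is near 0 in all young samples and between 2.50 and 110 CPM in the old, whereas in the other 8 panels the 2 groups overlap.

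The catalytic subunit Nox4 (ENSMUSG00000030562, chromosome 7, 87246096 to 87398710, plus strand) was present in both groups and did not follow Cyba between young and old. Among the old samples it had the same order as Cyba, old 2 above old 3 above old 1. Its counts were 13, 717 and 2029 in young 1, 2 and 3 and 129, 1458 and 359 in old 1, 2 and 3. In CPM these were 0.0973, 3.71 and 10.7 in young 1, 2 and 3, against 0.852, 8.21 and 1.97 in old 1, 2 and 3. The highest sample, young 3, had 1 Cyba count, and the lowest, young 1, had none, with 110-fold between the 2 Nox4 levels. Group means were 4.85 ± 5.41 CPM in the young and 3.68 ± 3.97 CPM in the old samples (SD, n = 3 each), with full overlap. The fitted log2 fold of old over young was 0.47 (SE 0.98) with a term for the gene list, and -0.46 (SE 0.87) when young 1 and old 1 were left out. It was -0.36 without the list term, 1.30 without old 3 and 1.28 without young 3, so its sign differed between settings. The 2 samples counted on the shorter list were the lowest for Nox4 in their groups. The part of the gene list in this order was not tested.

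Nox1 (ENSMUSG00000031257, X chromosome, 134086421 to 134221956, minus strand) was found in every sample at a low level. It gave 61, 369 and 287 counts in young 1, 2 and 3, against 210, 309 and 117 in old 1, 2 and 3, or 0.457, 1.91, 1.52, 1.39, 1.74 and 0.641 CPM. The group means of 1.29 ± 0.751 and 1.26 ± 0.561 CPM (SD, n = 3 each) differed by less than either spread. In old 2 the median gene of the X chromosome lay 0.64 log2 units above its median over the 6 samples, against -0.06 to -0.01 in the other 5, and the part of this in the Nox1 level was not tested. Its 3′ end overlaps 399 bases of the antisense gene Cstf2, which gave 2428 to 6897 counts, and the use of strand in counting is not given in the sources used here.

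Cybb, which encodes the phagocyte catalytic subunit Nox2 (ENSMUSG00000015340), was nearly absent. It gave 3 counts in 3 cells of young 2, of which 1 cell also had a UMI of the macrophage receptor gene Csf1r, and 0 counts in the other 5 samples. A count of 0 allowed at most 0.0159 to 0.0225 CPM in those samples. Of the members' catalytic subunits, then, Nox4 and Nox1 were measured in populations with and without Cyba, and Cybb was at or under the limit of detection in all 6.

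Within the old populations, cells with a Cyba UMI were compared with cells without one at equal depth. Many cells without one at this depth had one before thinning. In old 2, 2989 of 8510 cells had Cyba at 5000 UMIs and 5386 of 8725 without thinning. The values in old 3 were 2887 of 12168 and 5497 of 12541. The split therefore does not part cells that express Cyba from cells that do not. In old 1, Nox4 was found in 4 of 112 cells with Cyba (3.57%, exact 95% interval 0.982 to 8.89) and in 31 of 9794 cells without it (0.317%, 0.215 to 0.449). In old 2 the shares were 4.15% (3.46 to 4.93) of 2989 cells and 3.82% (3.33 to 4.36) of 5521 cells. In old 3 they were 1.14% (0.788 to 1.60) of 2887 cells and 0.690% (0.531 to 0.880) of 9281 cells. The share with Nox4 was thus larger among Cyba-positive cells in 3 of 3 samples, and the intervals were apart in old 1 only, on 4 cells. At 3000 UMIs, an alternative added after the data were seen, the order in old 2 was the other way (2.67% with and 2.70% without Cyba). Without thinning, where cells with Cyba are also deeper, the intervals were apart in old 1, old 2 and old 3. They were 4.85% (2.44 to 8.50) against 1.10% (0.903 to 1.32) in old 1. In old 2 they were 14.56% (13.62 to 15.53) against 12.40% (11.30 to 13.56), and in old 3 3.35% (2.89 to 3.86) against 1.66% (1.38 to 1.99). In edgeR's quasi-likelihood test with the sample as a block, Nox4 had a log2 fold of 0.47 (SE 0.32) in Cyba-positive over Cyba-negative cells (adjusted p = 1.00 over 12284 genes). That fold was 1.43 (SE 0.64, adjusted p = 1.00) without old 2, 1.12 with DESeq2 and 0.24 at 3000 UMIs. The same fold was 0.03 (SE 0.37) for Nox1, 0.09 (SE 0.39) for Noxo1 and -0.03 (SE 0.08) for Rac1, none of which passed, and each took both signs when samples were left out in turn. Cybb was found in none of the cells of either kind.

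No gene of the whole table was called between Cyba-positive and Cyba-negative cells (0% of 12284 by edgeR in either direction, with 394 at an unadjusted p under 0.05, and 0 by DESeq2, with 94). The count became 2 without old 1, 53 without old 2 and 5 without old 3. Because many cells without a UMI at this depth had Cyba before thinning, these counts do not show that cells with and without its expression are alike. In the young populations the question could only be put the other way round. There, at 5000 UMIs, Nox4 was found in 2 of 8444 cells of young 1 (0.0237%), in 192 of 10646 of young 2 (1.80%) and in 597 of 10631 of young 3 (5.62%), and a Cyba UMI in 1 cell of all 3.

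**Figure D2:**
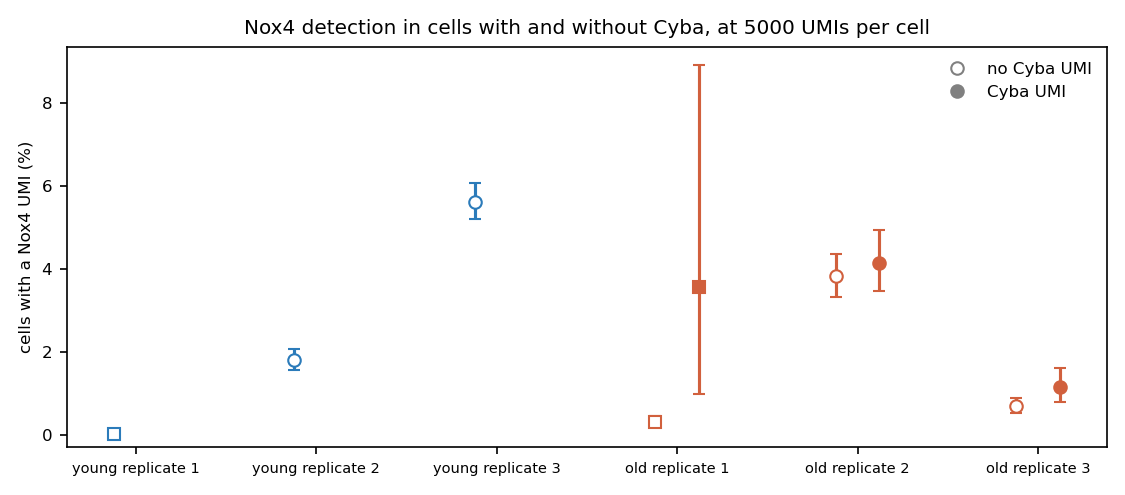
Percentage of cells with a Nox4 UMI (vertical axis) in each sample, at 5000 UMIs per cell, for cells without (open) and with (filled) a Cyba UMI; bars are exact 95% binomial intervals, squares are samples on the shorter gene list, and filled points are drawn where 50 or more cells had Cyba. Young 3 has the largest share, 5.62% of cells without Cyba, and in old 2 and old 3 the paired intervals overlap.

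Of the cytosolic organisers, Ncf1 (p47phox, ENSMUSG00000015950) gave 5, 119 and 17 counts in young 1, 2 and 3, against 13, 81 and 21 in old 1, 2 and 3. At 0.615 CPM in young 2 and 0.456 CPM in old 2, these samples stood above the other 4, which lay between 0.0374 and 0.115 CPM. The young mean was 0.248 ± 0.320 and the old mean 0.219 ± 0.206 CPM (SD, n = 3 each). The counts could include reads of the antisense neighbour Gtf2ird2, which overlaps 4303 bases of Ncf1 and gave 315 to 830 counts. In young 2, 73 of the 119 Ncf1 counts lay in Myog-positive cells, that is, cells with a UMI of myogenin, the factor of early muscle differentiation. After thinning, Ncf1 was at 2.06 CPM in these cells and 0.526 CPM in cells with neither Myog nor a proliferation transcript. The corresponding values in old 2 were 1.29 and 0.540 CPM, on 8 and 14 counts. In old 3 the values without thinning went the other way, at 0.131 CPM in Myog-positive and 0.248 CPM in the remaining cells, on 14 and 6 counts.

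Ncf4 (p40phox, ENSMUSG00000071715) came almost wholly from 1 sample. It gave 0, 36 and 0 counts in young 1, 2 and 3 and 5, 1 and 256 in old 1, 2 and 3, or 1.40 CPM in old 3 and at most 0.186 CPM elsewhere. In old 3, 214 of the 256 counts lay in the 7022 Myog-positive cells, 18 in proliferating cells and 24 in the remaining cells. Per UMI this was 2.00 CPM in Myog-positive, 0.351 CPM in proliferating and 0.991 CPM in the remaining cells, and at 5000 UMIs it was 2.50, 0.522 and 0.911 CPM. The 256 counts were spread over 233 cells. None of them had a UMI of Ptprc, Tyrobp, Spi1 or Csf1r, which mark leukocytes and macrophages, and 91 had a Cyba UMI. All kept cells of old 3 held only 6, 0, 3 and 10 counts of these markers, so their absence from 233 cells does not tell the kind of cell. At equal depth, Ncf4 was found in 0.554% (0.317 to 0.898) of Cyba-positive and 0.840% (0.665 to 1.05) of Cyba-negative cells of old 3. Old 3 also had the most Myog of the 6 samples, at 935 CPM against 6.25 to 344 CPM. In young 2, without thinning, Ncf4 was at 0.275 CPM in the remaining cells and no higher in Myog-positive cells.

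The organiser Noxo1 (ENSMUSG00000019320) gave 69, 76 and 50 counts in young 1, 2 and 3, against 73, 133 and 112 in old 1, 2 and 3. In CPM these were 0.516, 0.393 and 0.265 in young 1, 2 and 3, against 0.482, 0.749 and 0.613 in old 1, 2 and 3, so that old 1 lay inside the young range. The young mean was 0.391 ± 0.126 and the old mean 0.615 ± 0.133 CPM (SD, n = 3 each), and the fitted log2 fold was 0.58 (SE 0.64), with 1.10 (SE 0.68) in the 4 samples on the longer list and 0.23 (SE 0.76) without young 3. Noxo1 shares 2581 bases with the antisense gene Tbl3, which gave 1872 to 3967 counts. Its partner Noxa1 (ENSMUSG00000036805), the activator of Nox1, gave 1 count in young 3 and none in the other samples.

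Rac1 (ENSMUSG00000001847, chromosome 5, 143503634 to 143528036, minus strand), the GTPase that also steers the actin cytoskeleton, had the smallest spread among the 5 members with more than 3 counts in all 6 samples. It was at 216, 229 and 292 CPM in young 1, 2 and 3, against 250, 278 and 213 CPM in old 1, 2 and 3, with 28896 to 55079 counts per sample. The highest sample was 1.37-fold above the lowest. The young mean was 246 ± 40.4 and the old mean 247 ± 32.6 CPM (SD, n = 3 each), and the fitted log2 fold of old over young was -0.07 (SE 0.21). A Rac1 UMI was present in 61.8% to 75.8% of cells at 5000 UMIs. The antisense gene Daglb overlaps 2309 bases at its 3′ end and gave 865 to 2088 counts. In old 2 the median gene of chromosome 5 lay 0.17 log2 units above its median over the samples, and its part in the level of Rac1 was not tested.

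The level of the subunits was next compared between kinds of cell inside each sample, which the choice of genes had not used. Proliferating cells were those with a UMI of the cell cycle genes Mki67 or Top2a and none of Myog, Myog-positive cells those with a UMI of Myog, and the other cells had none of the 3. Ratios are to the other cells of the same sample, at 5000 UMIs per cell, tested with a two-sided exact sign-flip permutation test over samples and adjusted over 9 tests.

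Rac1 was at 223 to 295 CPM in proliferating cells and 208 to 280 CPM in the other cells. The mean log2 ratio was 0.09 ± 0.04 (SD, n = 6), above 0 in 6 of 6 samples (exact p = 0.0312, the smallest that 6 samples allow, adjusted p = 0.141). In Myog-positive cells Rac1 was at 153 to 273 CPM, with a mean log2 ratio of -0.26 ± 0.14 (SD, n = 6), below 0 in 6 of 6 samples (exact p = 0.0312, adjusted p = 0.141). Without thinning it was -0.07 ± 0.08 (exact p = 0.0938) with young 3 above 0, and with 2 or more Myog UMIs it was -0.43 ± 0.26. Neither passed after adjustment.

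Nox4 was at 1.59, 7.31, 4.20 and 0.894 CPM in Myog-positive cells of young 2, young 3, old 2 and old 3. In the other cells of the same samples it was at 4.73, 12.8, 9.11 and 2.33 CPM. The mean log2 ratio was -1.19 ± 0.34 (SD, n = 4), below 0 in 4 of 4 samples (exact p = 0.125, the smallest that 4 samples allow, adjusted p = 0.281). Between proliferating and other cells the ratio was -0.05 ± 0.16 (SD, n = 5; exact p = 0.50, adjusted p = 0.562).

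Cyba was at 2.28, 91.8 and 73.4 CPM in proliferating cells of old 1, 2 and 3 and at 2.95, 112 and 91.7 CPM in the other cells. The log2 ratio was -0.33 ± 0.04 (SD, n = 3), below 0 in 3 of 3 samples, in a design whose smallest exact p is 0.25. In Myog-positive cells Cyba was at 105 CPM in old 2 and 47.5 CPM in old 3, with log2 ratios of -0.10 and -0.95. Old 1 gave 2.07 on 3 counts in 56 cells, after 0.5 was added to each count as in all these ratios. Noxo1 had a log2 ratio of -0.65 ± 0.41 (SD, n = 5) in proliferating cells, below 0 in 5 of 5 samples (exact p = 0.0625, the smallest that 5 samples allow, adjusted p = 0.188), and -0.34 ± 0.31 (SD, n = 6) without thinning. At 5000 UMIs these ratios rest on only 4, 9, 13, 5 and 10 Noxo1 counts in proliferating cells of young 1, young 2, old 1, old 2 and old 3. The ratio of Nox1 in proliferating cells was 0.16 ± 0.25 (SD, n = 5; exact p = 0.25, adjusted p = 0.375), with samples on both sides of 0. In Myog-positive cells Nox1 was at 2.06, 2.19, 1.46 and 0.608 CPM in young 2, young 3, old 2 and old 3, against 2.39, 1.33, 1.62 and 0.626 CPM in the other cells, and old 1 had 0 counts in its 56 Myog-positive cells.

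**Figure D3:**
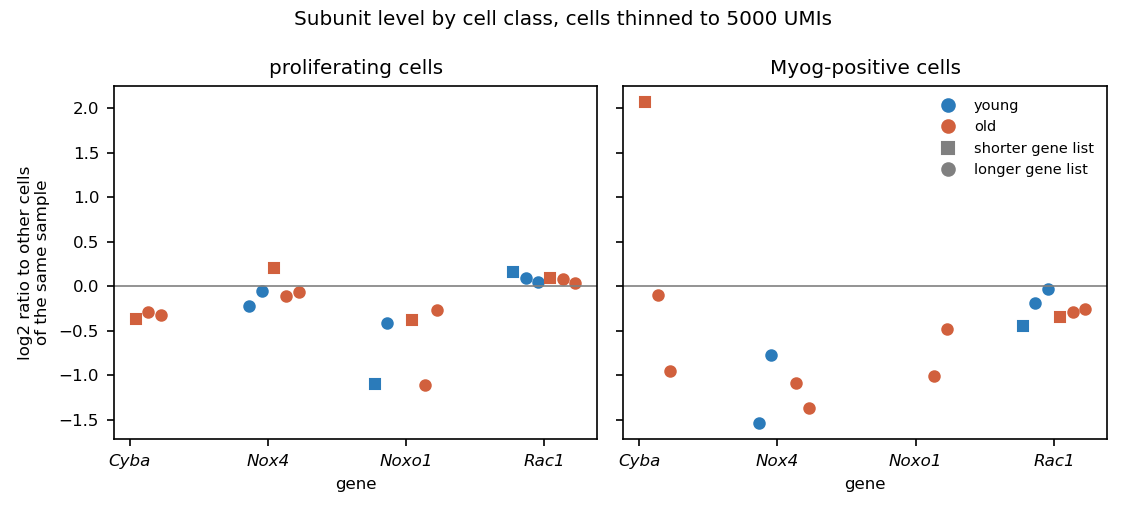
Log2 ratio of CPM (vertical axis) between proliferating cells (left) or Myog-positive cells (right) and the other cells of the same sample, for 4 subunits; each point is 1 sample, squares are on the shorter gene list and the line is at 0. In the right panel Nox4 lies between -1.54 and -0.77 in 4 samples and Rac1 between -0.45 and -0.03 in 6.

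The cells in which Nox4 was found differed from the rest of their sample across many genes. In young 2, young 3, old 2 and old 3, which had 192, 597, 335 and 97 Nox4-positive cells at 5000 UMIs, edgeR's quasi-likelihood test with the sample as a block called 134 genes higher (1.1% of 12169) and 748 lower (6.15%) in Nox4-positive cells. The sum of these calls was 430 without old 2 and 417 with DESeq2. Among the members, Cyba had a log2 fold of 0.25 (SE 0.15, adjusted p = 0.396), Rac1 -0.04 (SE 0.06), Nox1 -0.40 (SE 0.57) and Noxo1 -0.09 (SE 0.88), and none was called. Cyba gave 1 count in young 2 and 0 in young 3 at this depth, so its fold rests on old 2 and old 3. The fold of Cyba was 0.70 without thinning, where old 1 entered as well, and 0.91 with DESeq2 (adjusted p = 0.245 and 0.481). That of Nox1 was -2.45 (SE 1.19, adjusted p = 0.292) without young 3 and 0.11 without old 2, and that of Noxo1 was 0.31 without young 3 and 0.24 without thinning, so neither had a settled sign.

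The 6 genes named among the 748 that fell had the largest folds of those at 20 CPM or more that were lower in all 4 samples, and 5 encode contractile proteins and 1 a fusion protein. Tnnc2, the calcium-binding troponin of fast muscle, was at 94.5, 7.75, 18.3 and 569 CPM in Nox4-negative and 1.04, 0, 0.597 and 8.25 CPM in Nox4-positive cells of young 2, young 3, old 2 and old 3. Its log2 fold was -6.26 (SE 0.23, edgeR adjusted p = 1.65e-33). The levels in Nox4-positive cells rest on very few UMIs, and this SE, derived from the F statistic, is smaller than their counting error. Moving the same way in all 4 samples was part of the choice of these genes. Of the genes called at 20 CPM or more, 92 of 103 that rose and 460 of 686 that fell did so. The log2 folds were -4.61 (SE 0.18) for the cardiac actin gene Actc1, -3.66 (SE 0.26) for the skeletal actin gene Acta1 and -3.55 (SE 0.47) for the myosin light chain gene Myl4. The SE of Actc1 has the same limit as that of Tnnc2. Those of the slow troponin gene Tnnc1 and the fusion gene Mymk were -3.44 (SE 0.41) and -3.28 (SE 0.23). Of 10 myogenic markers, 4 fell (Myod1, Myog, Des and Chrna1) and none rose, where 6.15% of all genes fell and 1.1% rose. Of the 5928 genes tested at 20 CPM or more, 686 fell and 103 rose. Myog was at -2.15 (SE 0.11). In the other marker lists 1 of 6 mural genes was called, which was Des again. The counts were 0 of 6 fibro-adipogenic, 0 of 4 glial, 0 of 2 endothelial and 0 of 2 leukocyte and phagocyte genes tested. Pax7, the factor of muscle stem cells, was at 0.30 (SE 0.14, adjusted p = 0.231).

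The 6 genes named among those that rose were Mmp16, a membrane-bound matrix protease, Brinp3, the cadherin-family genes Pcdh15, Cdh10 and Pcdh9, and Prkg1, the cGMP-dependent kinase. Prkg1 was at 65.4, 28.1, 54.8 and 12.4 CPM in Nox4-negative and 114, 43.6, 84.2 and 16.5 CPM in Nox4-positive cells, in the same order of samples. Its log2 fold was 0.56 (SE 0.10, edgeR adjusted p = 4.36e-05), and the other 5 lay between 0.55 and 0.61. Genes that rose were long. Their median span on the genome was 252255 bases and 75.9% exceeded 100 kb, against 7673 bases and 2.94% for those that fell and 25432 bases and 14.96% for all genes tested. Nox4 itself spans 152615 bases. The part of gene length in these calls was not tested, and whether intronic reads were counted is not given in the sources used here.

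When only cells with no Myog UMI were compared, an alternative added after the data were seen, 207 genes rose and 586 fell among 11943. Of the 134 and 748 genes called before, 118 (88.1%) and 501 (67.0%) were called again, which are 57.0% and 85.5% of the new calls. All 6 named genes that rose were called again, while of the 6 that fell Tnnc2 (log2 fold -2.94, SE 0.73) and Tnnc1 (-1.26, SE 0.20) were. Actc1, Acta1, Myl4 and Mymk were then at -0.93, -0.76, -0.50 and -1.13 (adjusted p = 0.422, 0.317, 0.223 and 0.0529).

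**Figure D4:**
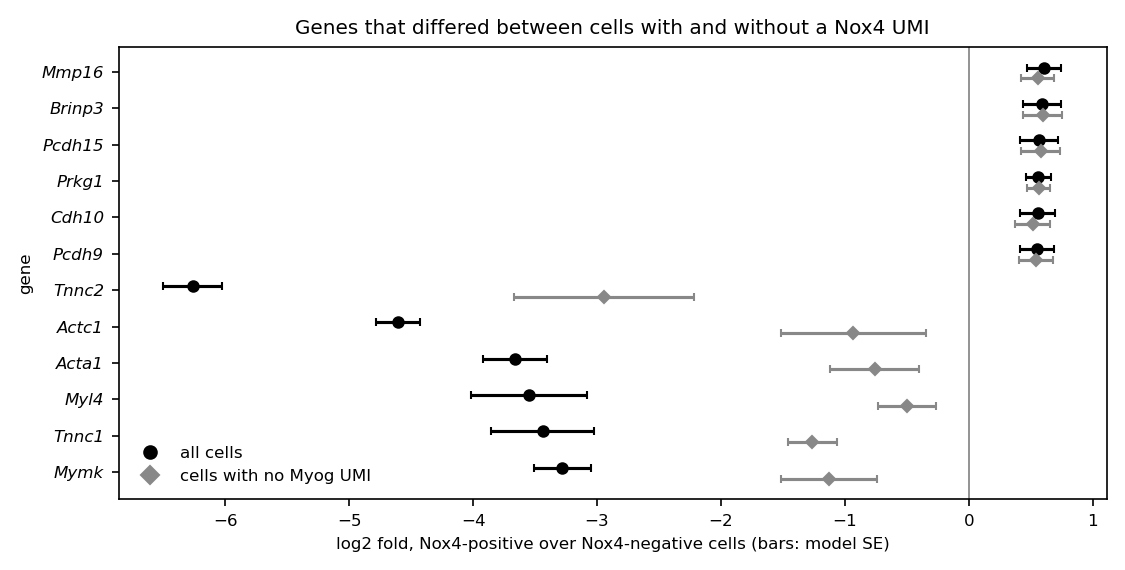
Log2 fold of Nox4-positive over Nox4-negative cells (horizontal axis, bars are SE derived from the F statistic) for the 12 named genes, in all cells (black) and in cells with no Myog UMI (grey). The 6 genes that rose lie at 0.55 to 0.61 in all cells, and the 6 named genes that fell move from between -6.26 and -3.28 to between -2.94 and -0.50.

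Genes that act on or around the oxidase were taken from 5 lists and counted in the same 2 comparisons. Between young and old, edgeR called none in any list, with the counts per list 0 of 22 tested partners and regulators, 0 of 18 for superoxide and peroxide handling, 0 of 10 for NADPH supply, 0 of 12 for haem synthesis and breakdown, and 0 of 10 other sources of superoxide or peroxide. At an unadjusted p under 0.05 these counts were 2, 3, 0, 0 and 1. DESeq2 called 4 genes in all, 1 of 22 partners and regulators lower and 3 of 18 for superoxide and peroxide handling higher. Over all 14512 genes, edgeR called 1 and had 512 at an unadjusted p under 0.05, and DESeq2 called 180 higher and 39 lower. The median log2 folds were -0.05, 0.06, -0.15, 0.04 and 0.30, against -0.01 over all 14512 genes. Young and old samples did not overlap for 3, 3, 0, 0 and 1 genes of these lists, where 5.93% of all genes did not. Gpx3, the secreted peroxidase, was at 0.0299, 0.145 and 0.00529 CPM in young 1, 2 and 3, against 11.1, 61.4 and 35.8 CPM in old 1, 2 and 3, with a log2 fold of 9.02 (SE 1.18, adjusted p = 0.347), and it was called without young 3. Sod3, the extracellular superoxide dismutase, was at 0.853, 0 and 0.222 CPM in young 1, 2 and 3, against 26.6, 1.98 and 2.72 CPM in old 1, 2 and 3 (log2 fold 4.54, SE 1.34, adjusted p = 1.00). Prdx4, the peroxiredoxin of the secretory pathway, was at 0.210, 189.8 and 267 CPM in young 1, 2 and 3, against 186, 406 and 173 CPM in old 1, 2 and 3, so that young 1 alone stood apart. Arhgdib, whose product binds Rac proteins in their inactive form, was at 106, 138 and 81.1 CPM in young 1, 2 and 3, against 2.30, 3.16 and 17.4 CPM in old 1, 2 and 3 (log2 fold -4.13, SE 0.98, adjusted p = 1.00). Prkcb, a protein kinase C, was at 31.5, 0.920 and 0.508 CPM in young 1, 2 and 3, against 41.0, 2.86 and 29.1 CPM in old 1, 2 and 3, and the groups overlapped. The genes with the largest folds at a mean of 5 CPM or more in the other 3 lists, Tkt (-0.79), the haem oxygenase gene Hmox1 (1.45) and Xdh (1.52), had overlapping groups too. The blood-cell Rac2 gave at most 1 count per sample and its activator Vav1 none.

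Between Nox4-positive and Nox4-negative cells, 2 of 19 tested partners and regulators were called, where 1.1% of all genes rose and 6.15% fell. Vav3, an exchange factor for Rac, rose by 0.33 (SE 0.11, adjusted p = 0.0439), and Poldip2, whose product is known to bind the Nox4 and p22phox pair, was at -0.32 (SE 0.08, adjusted p = 0.00646). In superoxide and peroxide handling, 4 of 17 fell and none rose. These 4 had mean levels of 234 to 2374 CPM over the 6 samples. Among all genes tested at 20 CPM or more, 686 of 5928 fell, a larger share than over all genes. They were the mitochondrial dismutase Sod2, the lipid peroxidase Gpx4 (log2 fold -0.18, SE 0.04, adjusted p = 0.00113) and the peroxiredoxins Prdx1 and Prdx2 (-0.12 and -0.14). Idh2, which makes NADPH in mitochondria, fell by 0.20 (SE 0.06, adjusted p = 0.0295) as the only call among 10 genes of NADPH supply, and none of 12 haem genes or 10 other sources was called. With so few members, counts of 1 or 2 in a list are near the share over all genes. The lists were not counted again in cells with no Myog UMI, and the part of gene length in their calls was not tested.

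In GENCODE vM21 the antisense gene Gm20388 covers all 8155 bases of Cyba, and it is in neither gene list, so no count of it was analysed here. The 10 nearest genes to Cyba that were in both gene lists, 5 on each side, did not share its pattern. Mvd, an enzyme of cholesterol synthesis that ends 671 bases from Cyba, was at 12.1, 11.9 and 11.5 CPM in young 1, 2 and 3, against 7.47, 14.1 and 8.60 CPM in old 1, 2 and 3. On the other side Il17c, a cytokine gene 1137 bases away, gave 4 to 17 counts in every sample, and Zc3h18 was at 36.3, 44.5 and 61.7 CPM in young 1, 2 and 3, against 53.9, 31.6 and 29.4 CPM in old 1, 2 and 3. For all 10, young and old samples overlapped and none was called by edgeR. Over all 14512 genes tested, 5.93% did not overlap and 0.00689% were called, so both counts are near the share over all genes. The median gene of chromosome 8 lay within 0.06 log2 units of its median over the samples in all 6.

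**Figure D5:**
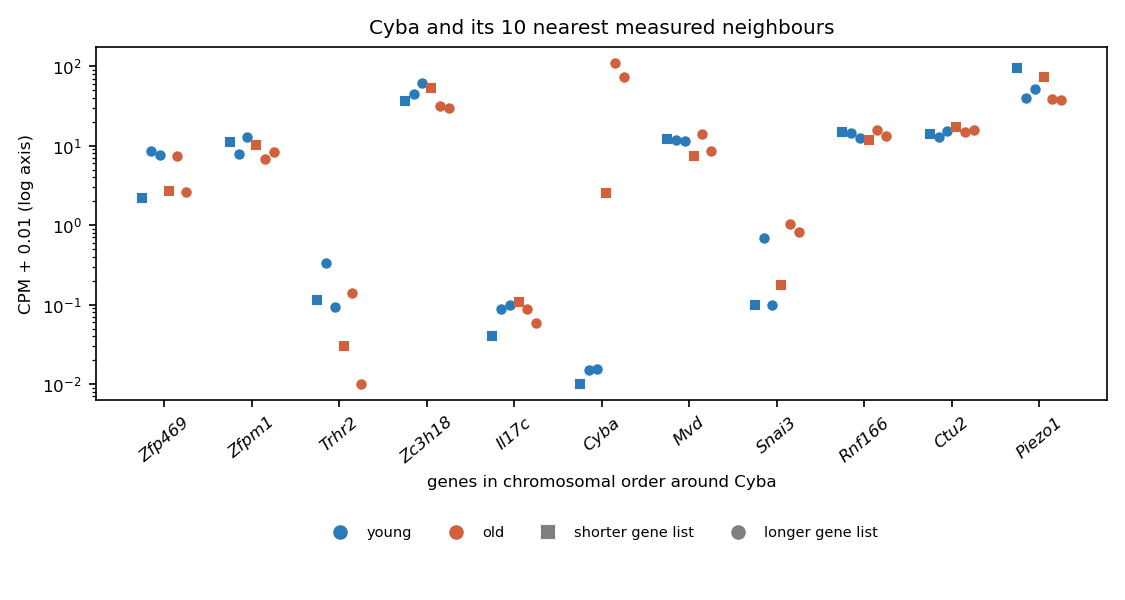
CPM plus 0.01 on a log axis for Cyba and the 5 nearest genes on each side, in chromosomal order; each point is 1 sample, in order young 1 to 3 then old 1 to 3, with squares on the shorter gene list. Cyba alone separates the groups, and the Mvd points beside it lie between 7.47 and 14.1 CPM.

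Among 9623 other genes at a mean of 5 CPM or more (9624 for Nox4), those whose level followed a member most closely were ranked by Pearson's r. It was taken on log2(TMM-scaled CPM + 1) over the 6 samples. These differ together in library, depth, gene list and group, and the values are a description only. For Cyba the 5 closest were Fahd2a (r = 0.993, Spearman 0.77), Fitm2, Fgf13, Bcdin3d and Tmem129. Fahd2a was at 2.22, 2.17 and 2.97 CPM in young 1, 2 and 3, against 5.15, 13.003 and 11.9 CPM in old 1, 2 and 3. For Nox4 they were Pwwp3b (r = 0.990), Cnot6, Wdfy3, Nf1 and Satb1, all 5 with the same order of samples as Nox4 itself after this scaling. Pwwp3b was at 16.9, 41.3 and 76.7 CPM in young 1, 2 and 3, against 24.7, 58.3 and 33.9 CPM in old 1, 2 and 3. For Rac1 they were Fbxo21 (r = 0.994), Tmem132a, Stt3b, Chmp2b and Cnpy3.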

How the data were processed

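The authors deposited, for each of the 6 samples, a matrix of raw UMI counts per gene and barcode. The counts were made with Cell Ranger 7.0.0 (young 1 and old 1, 21849 features) or 7.2.0 (the other 4, 32285 features), per the file headers. The submitters' processing notes name Cell Ranger 7.2.0, Seurat and the build mm10, which is GRCm38. The annotation release, strand setting and treatment of intronic reads are not given in the sources used here. A barcode counted as a cell with at least 1000 UMIs, at least 500 genes and under 15% mitochondrial UMIs. No doublet caller was run. An alternative left out the highest-UMI barcodes, up to 0.8% per 1000 barcodes.

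Counts were summed over kept cells on the 21485 shared identifiers, matched by Ensembl identifier, and tested with edgeR 4.0.16 (TMM, filterByExpr, robust quasi-likelihood F test, terms for gene list and group, R 4.3.3). DESeq2 1.42.0 was an alternative. Adjustment was by Benjamini-Hochberg at 0.05. SE values are model-based. Of the members, 6 passed the filter on low counts, and Cybb, Ncf4 and Noxa1 did not. Printed CPM values are unscaled. The correlations between genes and the chromosome medians used TMM-scaled CPM. Totals of 133608357 to 193380549 UMIs set the precision, and intervals and upper limits (3 counts) cover counting error only. Within-sample contrasts used cells thinned to 5000 UMIs, and CPM summed over these cells. The 2 fits across genes needed 50 or more cells in both classes. The class ratios needed 20 or more counts of the gene in a sample, over both classes together. The fits were also run on simulated counts with a common dispersion, set by hand for the within-sample fits, and no result here rests on these runs. Positions are from GENCODE vM21 and promoters from RefSeq.

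The members, lists and tests were chosen with earlier results of these data known. In the 2 within-sample fits, up to 6 genes in each direction were named, those with the largest fold among genes that passed, had 20 CPM or more and moved the same way in every sample. From each list at most 4 genes were named in each comparison, by calls and then by size of fold at a mean of 5 CPM or more. Rac2, Vav1, Pax7 and Myf5 fall outside this rule and were named after their values were seen. The other genes of the lists enter only the counts and medians, and 1 gene is not reported here.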

Additional observations from a re-analysis of the deposited data

How the results depend on the processing

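The count of genes called between old and young (1) was 219 with DESeq2, 0 without the gene list term, 0 on the longer list alone, and between 0 and 3 with 1 sample left out. With a replicate block it was 1. Deviations of same-numbered samples correlated at 0.40, 0.28 and -0.11, so the numbers were not taken as pairs. Calls in the 5 lists (0) were 4 with DESeq2 and 0 to 1 with 1 sample left out. Calls by Nox4 detection (882) were 336 at 3000 UMIs, 417 with DESeq2, and 430 to 1146 with 1 sample left out. Calls by Cyba detection (0) were 20 at 3000 UMIs, 24 with no filter on low counts, and 2 to 53 with 1 sample left out. The cause was not tested for any of these.

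Besides those given with the results, the following ratios changed sign. Cyba in Myog-positive cells (0.34) was -0.25 without thinning and -0.53 to 0.98 with 1 sample left out. Nox1 in proliferating cells (0.16) was -0.020 at 3000 UMIs and -0.16 without thinning, and in Myog-positive cells (0.21) it was -0.59 and -0.29. The value of 0.21 includes old 1, whose ratio of 0.59 comes from 0 counts and the added 0.5. Rac1 in Nox4-positive cells (-0.04) was 0.065 without thinning. Rac1 in Cyba-positive cells (-0.03) was 0.019 at 3000 UMIs, 0.039 without thinning and -0.12 to 0.031 with 1 sample left out. With 3 samples a group, the biological coefficient of variation was 0.56. Cybb and Noxa1 were at or under the limit of 3 counts in all 6 samples, so differences in them were not detectable at this depth.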
